A study of Mus musculus with 7 samples.

Results

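A pair of perturbations of the primary cilium were set directly against each other in SMB21 cells, a mouse medulloblastoma line: CRISPR with a guide against Ofd1, which encodes a basal body protein, and CRISPR with a guide against Kif3a, which encodes a subunit of the ciliary motor. The comparison takes 5 of the 7 libraries of the series, 3 of Ofd1 CRISPR cells and 2 of Kif3a CRISPR cells, and leaves the 2 libraries of GFP control cells out of the test. It covers 12752 of the 24047 genes in the table, those with enough counts to be tested. The question is how cells given a guide against a basal body gene differ from cells given a guide against a gene of the motor that builds the cilium.

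All groups share one background. The cells carry a Ptch mutant genotype, the labels name Ptch1tm1Mps/J as the strain and Adult as the age, and the cells grew as neurospheres in DMEM/F12 medium with B27 supplement. The genotypes are CRISPR-Ofd1, CRISPR-Kif3a and CRISPR-GFP, each made with the lentiCRISPR vector, and RNA was taken 2 weeks after infection. GFP is a jellyfish protein, so its guide serves as a control for infection and Cas9. The sources used here do not give the guide sequences, the extent of editing, or whether a library stands for a clone or a pool. The labels call the replicates biological. A p-value below measures the spread between these libraries of 1 cell line and nothing wider.

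The primary cilium is a microtubule-based projection that grows from the mother centriole, which is then called the basal body. OFD1 sits at the distal end of centrioles and in centriolar satellites and is needed before a cilium can start to grow. KIF3A pairs with KIF3B in kinesin-2, the motor that carries intraflagellar transport trains towards the tip as the cilium extends. Vertebrate Hedgehog signalling runs through the cilium: PTCH1 restrains SMO, and active SMO in the cilium turns GLI proteins into transcriptional activators. Loss of Ptch1 switches the pathway on without ligand, and tumour cells of this kind resemble the granule neuron progenitors of the cerebellum.

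The line's label was checked against 10 markers of Hedgehog-type granule neuron progenitors, among them the transcription factors Atoh1, Barhl1, Zic1 and Pax6. All 10 were present in all 5 libraries, the lowest being Neurod1 at 13.5 CPM (CPM is a gene's count scaled to a common library total, here with TMM factors, which adjust for library composition). Library totals ran from 17961767 to 23022701 counts. The libraries did not fall apart by guide over the whole transcriptome: Ofd1 replicate 2 lay closer to Kif3a replicate 2 (chi-square of 5.52 per degree of freedom) than to Ofd1 replicate 1 (9.24) or Ofd1 replicate 3 (7.38). The Kif3a libraries lay 8.67 from each other on the same measure. The first principal component, with 33% of the variance over the 5 libraries, set Ofd1 replicate 1 apart from the other 4. The second, with 32.2%, ran from Kif3a replicate 1 (-16.5) to Ofd1 replicate 3 (11.5). On it Kif3a replicate 2 (-1.4) lay beside Ofd1 replicate 1 (-1.84).

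The targeted transcripts were examined first, since they check the labels, although a Cas9 cut can disable a protein without lowering its mRNA. Kif3a stood at 90.6, 93.2 and 97.5 CPM in Ofd1 replicates 1 to 3 and at 73.7 and 60.7 CPM in Kif3a replicates 1 and 2, with GFP libraries at 104 and 104 CPM. The Kif3a libraries were the lowest of the 7, but the difference between the guides, 0.47 in log2 (SE 0.0957), did not pass the test (adjusted p = 0.131). Ofd1 stood at 21.0, 20.0 and 22.0 CPM with its own guide and at 31.6 and 29.1 CPM with the Kif3a guide, and the GFP libraries had 22.6 and 23.1 CPM. The guides were apart for Ofd1 with a log2 difference of -0.54 (SE 0.10, adjusted p = 0.0962), also outside the threshold. That separation came with Ofd1 mRNA above the GFP libraries in the Kif3a libraries, at log2 0.41 (adjusted p = 0.0126), while the Ofd1 guide against GFP gave -0.12 (adjusted p = 0.398). DESeq2 placed both transcripts inside the threshold, with adjusted p = 0.0187 for Ofd1 and 0.00533 for Kif3a, and over all alternatives it ran from 0.000625 to 0.999 for Ofd1 and from 0.000189 to 0.547 for Kif3a. Both contrasts against GFP are from a 7-library fit and share the GFP libraries. Kif3a thus fell against GFP under its own guide, by 0.63 on the log2 scale (adjusted p = 8.54e-04), and a drop of Ofd1 mRNA under its guide was not detected.

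Directly compared, the guides differed in 17 genes, and all 17 were higher in Ofd1 CRISPR cells. They make up 0.133% of the 12752 genes tested, at a Benjamini-Hochberg adjusted p under 0.05 in edgeR's quasi-likelihood test. None was lower in Ofd1 CRISPR, 0% of the tested genes, while 416 genes (3.26%) leaned that way and 544 (4.27%) the other at an unadjusted p under 0.05. The 17 genes are led by glucose uptake and glycolysis (Slc2a1, Slc2a3, Pfkl, Pfkfb3, Tpi1, Slc16a3), and the others include the oxygen-sensing hydroxylases Egln1 and Egln3, the glycogen synthase Gys1, the collagen-modifying enzymes P4ha2 and Loxl2 and the secreted peptide gene Apln. The excess in Ofd1 CRISPR over Kif3a CRISPR ran from 1.47-fold to 4.2-fold with a median of 1.8-fold, and 8 genes passed 2-fold. In each of the 17, the lowest Ofd1 library was above the higher Kif3a library, which was so for 12.4% of all tested genes.

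The count rests on few libraries. DESeq2 called 48 genes, 46 of them higher and 2 lower in Ofd1 CRISPR. Leaving out Ofd1 replicate 1 gave 71 calls, 60 higher and 11 lower, leaving out Ofd1 replicate 3 gave 8, leaving out Kif3a replicate 2 gave 3 and leaving out Kif3a replicate 1 gave 0 (387 genes at an unadjusted p under 0.05). The log2 differences of the 17 genes kept their sign in each of these fits. That all calls point one way is not so in every fit: no filter on low counts gave 157 higher and 24 lower, and a model with a replicate term called many genes in both directions.

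**Figure D1:**
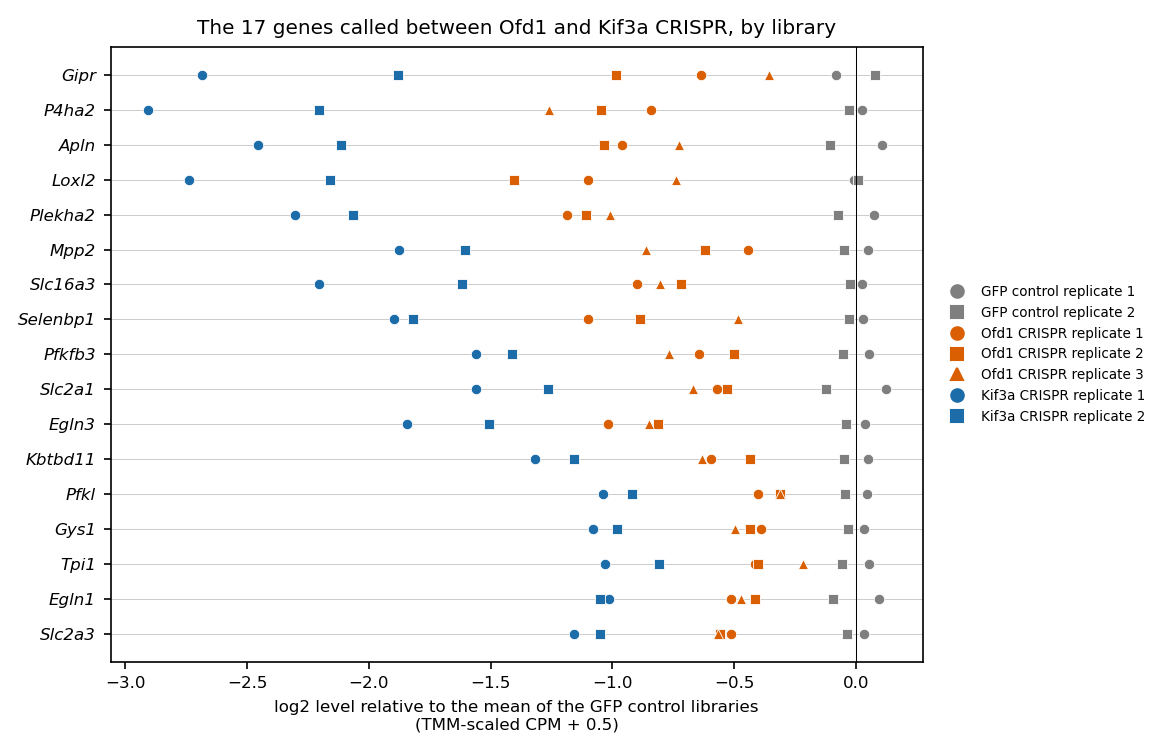
Each of the 17 genes called between the guides (vertical axis) with its level in every library as log2 of TMM-scaled CPM plus 0.5, relative to the mean of the GFP control libraries (horizontal axis); grey points are GFP control, orange Ofd1 CRISPR and blue Kif3a CRISPR, with the point's shape giving the replicate. The order is GFP control, then Ofd1 CRISPR, then Kif3a CRISPR from right to left for all 17, and the groups do not overlap.

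Genes of glucose uptake and the early, committed steps of glycolysis carried the 3 smallest p-values. Pfkfb3 makes fructose 2,6-bisphosphate, the strongest allosteric activator of phosphofructokinase. Its level was 112, 124 and 103 CPM in the Ofd1 libraries, 59.1 and 65.7 CPM in the Kif3a libraries and 182 and 169 CPM in the GFP libraries. The 3 groups do not overlap, and the Ofd1 libraries lie between the other groups, 1.8-fold above Kif3a CRISPR (log2 0.85, 95% interval 0.64 to 1.06, adjusted p = 0.00821). Slc2a1, the glucose transporter GLUT1, read 84.2, 86.7 and 78.7 CPM with the Ofd1 guide, 42.1 and 51.9 CPM with the Kif3a guide and 137 and 115 CPM with the GFP guide. It was 1.77-fold higher in Ofd1 CRISPR (adjusted p = 0.00821), again with no overlap. Pfkl, the liver-type phosphofructokinase subunit, had 324, 345 and 345 CPM in Ofd1 CRISPR against 208 and 227 CPM in Kif3a CRISPR, and 442 and 415 CPM in the controls. At 1.55-fold (adjusted p = 0.00821) the difference was smaller than for Pfkfb3 but the libraries of each guide were tight.

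Further along the pathway, Slc16a3 encodes MCT4, the transporter that exports lactate from glycolytic cells. Its libraries stood at 25.4, 28.8 and 27.2 CPM for Ofd1, 9.99 and 15.2 CPM for Kif3a and 48.6 and 47.0 CPM for GFP. Levels in Ofd1 CRISPR were 2.16-fold those in Kif3a CRISPR (adjusted p = 0.0101), and the lower Kif3a value was in replicate 1. The genes named so far follow a rule of size and p, and the other 4 called genes, Slc2a3, Tpi1, Gys1 and Egln1, fell outside it and are described after their values were seen. Slc2a3, the high-affinity transporter GLUT3, had 136, 132 and 131 CPM against 86.9 and 93.6 CPM (adjusted p = 0.0101). Tpi1, triosephosphate isomerase, had 932, 941 and 1069 CPM against 608 and 709.7 CPM (adjusted p = 0.0439), a count that is uncertain because near-identical pseudogene copies can share its reads. Gys1, glycogen synthase of muscle and brain, had 131, 127 and 122 CPM against 81.0 and 86.7 CPM (adjusted p = 0.00952). All of these were near 1.5-fold, from 1.47-fold for Slc2a3 to 1.5-fold for Gys1, with every Ofd1 library above both Kif3a libraries.

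The oxygen sensors form the next group. Prolyl hydroxylases of the EGLN family mark the alpha subunits of hypoxia-inducible factors (HIF) for destruction when oxygen is present, and Egln1 and Egln3 are themselves textbook HIF target genes. Egln3 was at 79.3, 91.4 and 89.2 CPM in Ofd1 CRISPR, 44.5 and 56.4 CPM in Kif3a CRISPR and 165 and 157 CPM in GFP control. Its 1.71-fold difference (adjusted p = 0.0101) exceeded that of Egln1, at 171, 184 and 176 CPM against 121 and 118 CPM (1.48-fold, adjusted p = 0.00952). Of 9 tested members of a list of HIF subunits and their regulators, put together after these calls were seen, Egln1 and Egln3 were the 2 called, beside 0.133% of all genes. Hif1a, the main oxygen-regulated subunit, was at 256, 254 and 275 CPM against 336 and 278 CPM. Its Ofd1 libraries all lay below its Kif3a libraries, the opposite order to the Egln genes, without passing the test (log2 -0.24, adjusted p = 0.588). Egln2, Vhl, Arnt and Hif1an had log2 differences of 0.00, 0.06, -0.03 and -0.07, with overlapping libraries.

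Larger folds were seen for enzymes of the extracellular matrix and for a secreted peptide. P4ha2, a catalytic subunit of collagen prolyl 4-hydroxylase, had 22.3, 19.3 and 16.6 CPM in Ofd1 CRISPR, 4.95 and 8.38 CPM in Kif3a CRISPR and 41.2 and 39.7 CPM in GFP control. Kif3a replicate 1 was the lowest library, and the difference was 2.94-fold (log2 1.56, 95% interval 1.12 to 1.99, adjusted p = 0.00821). Loxl2, a lysyl oxidase that crosslinks collagen, stood at 36.0, 29.1 and 46.3 CPM against 11.2 and 17.0 CPM, with 77.2 and 78.2 CPM in the controls. The Ofd1 libraries of Loxl2 spread more widely than those of most called genes and still cleared the Kif3a libraries (2.64-fold, adjusted p = 0.0105). Apln, which encodes apelin, a peptide that acts on endothelial cells, was low throughout at 7.59, 7.18 and 8.999 CPM, 2.37 and 3.13 CPM and 16.4 and 14.1 CPM for Ofd1, Kif3a and GFP. Its excess with the Ofd1 guide was 2.89-fold (adjusted p = 0.00821). The related P4ha1 and Plod2, hydroxylases of collagen proline and lysine, were also apart without a call, at 99.4, 112 and 111 CPM against 77.6 and 83.1 CPM and 91.2, 99.99 and 93.3 CPM against 74.8 and 73.6 CPM (adjusted p = 0.131 and 0.204).

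The remaining 5 called genes are, like Apln, in none of the lists used here. Mpp2, a membrane-associated guanylate kinase scaffold, had 29.6, 26.1 and 22.0 CPM with the Ofd1 guide and 10.6 and 12.9 CPM with the Kif3a guide (2.2-fold, adjusted p = 0.00821). Kbtbd11, a BTB and kelch domain protein, had 141, 157 and 137 CPM against 84.9 and 94.9 CPM (1.61-fold, adjusted p = 0.00821). Plekha2, a phosphoinositide-binding adaptor, had 7.59, 8.02 and 8.64 CPM against 3.23 and 3.89 CPM (2.27-fold, adjusted p = 0.0145). In these genes too every Ofd1 library exceeded both Kif3a libraries. Selenbp1, a selenium-binding methanethiol oxidase, had 11.3, 13.1 and 17.5 CPM against 6.28 and 6.65 CPM (2.16-fold, adjusted p = 0.0439). Gipr, the receptor of the incretin hormone GIP, had the largest fold and the fewest counts, at 3.89, 2.95 and 4.83 CPM against 0.560 and 1.35 CPM. Its 4.2-fold excess carried a wide interval of 1.32 to 2.82 in log2 and passed by a small margin (adjusted p = 0.0439).

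The genes next to the threshold on its far side were Ciart (log2 0.90, adjusted p = 0.0632), Pdk1 (0.59, 0.0704), Lrp5 (0.48, 0.0941) and Ofd1 itself. Just inside it were Gipr, Tpi1 and Selenbp1, each at an adjusted p of 0.0439. Ciart is a repressor of the circadian clock, PDK1 shuts pyruvate out of the mitochondrion by inhibiting pyruvate dehydrogenase, and LRP5 is a Wnt co-receptor.

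**Figure D2:**
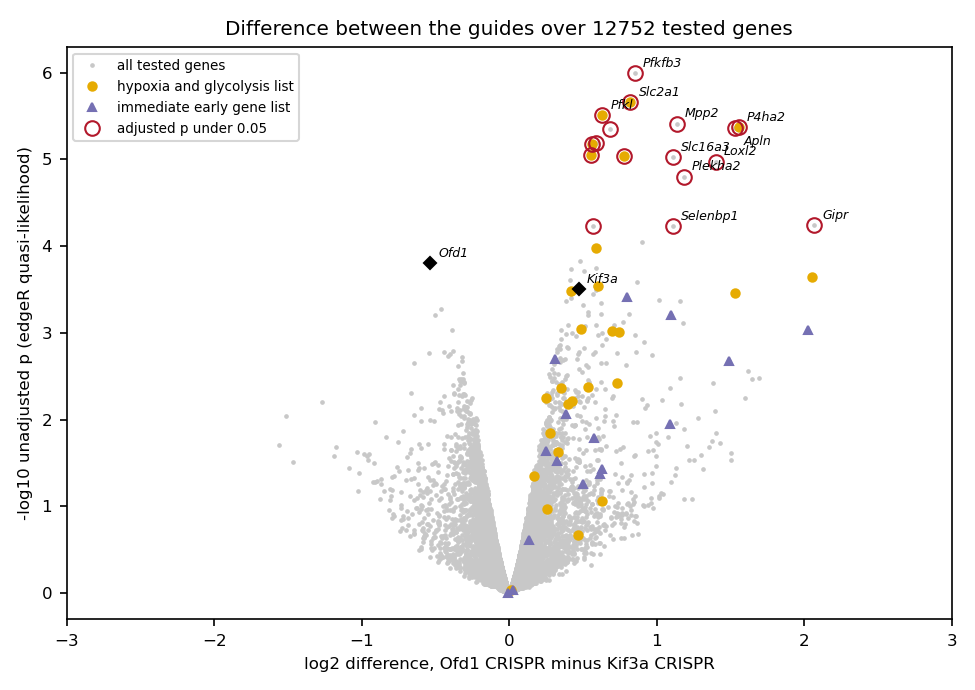
Log2 difference between Ofd1 CRISPR and Kif3a CRISPR (horizontal axis) against the unadjusted p of edgeR's quasi-likelihood test on a -log10 scale (vertical axis) for the 12752 tested genes, each a grey point. Red rings mark the 17 called genes, all to the right of 0; yellow points are the hypoxia and glycolysis list, purple triangles immediate early genes, and 4 genes (Ccl22, Cd74, Ccl17 and Chil3) lie beyond the right end of the axis.

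For the called genes the GFP control adds where each guide stands. In all 17, both GFP libraries were above every Ofd1 library, and every Ofd1 library was above both Kif3a libraries. By group means alone, a looser criterion, GFP was above both guides and nearer to Ofd1 CRISPR in 25.4% of all tested genes. The guides' own contrasts against GFP, from the 7-library fit, had medians over the 17 genes of -0.642 in log2 for Ofd1 CRISPR (range -1.15 to -0.343) and -1.68 for Kif3a CRISPR (range -2.77 to -0.916). Of the 17, 16 passed the test as lower than GFP in Ofd1 CRISPR, where 8.01% of all tested genes did, and 17 in Kif3a CRISPR, where 10.8% did. The exception was Gipr, at log2 -0.70 (adjusted p = 0.0812) with the Ofd1 guide and -2.77 (adjusted p = 2.66e-04) with the Kif3a guide. P4ha2 read -1.06 (adjusted p = 0.0014) and -2.62 (adjusted p = 1.51e-05) in the same order, and Slc2a1 -0.60 (adjusted p = 0.00221) and -1.42 (adjusted p = 1.62e-05). The 3 contrasts share libraries, and the genes were chosen for the gap between the guides, so these values describe the genes and are no separate test.

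The position of GFP was also read in all genes whose guides did not overlap. Of the 1579 genes with every Ofd1 library above both Kif3a libraries, the GFP mean was above both guides in 56.5% and between them in 27.9%. In the 1354 genes with the opposite order (10.6% of those tested), the GFP mean was below both guides in 56.7%. Over all tested genes GFP was above both guides in 40.6% and below both in 42.7%, and its mean was nearer to Ofd1 CRISPR than to Kif3a CRISPR in 61.1%.

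The promoters of 5 called genes are shown because these genes move together and several are textbook targets of HIF, whose heterodimer binds the letters ACGTG or GCGTG. Each sequence is the 250 bases before the annotated start in the RefSeq promoter table of build GRCm38.p6, written from 5′ to 3′ along the gene's strand, with either motif in capitals, also where it reads as its reverse complement (CACGT or CACGC).
Slc2a1, chr4:119108495-119108744, plus strand: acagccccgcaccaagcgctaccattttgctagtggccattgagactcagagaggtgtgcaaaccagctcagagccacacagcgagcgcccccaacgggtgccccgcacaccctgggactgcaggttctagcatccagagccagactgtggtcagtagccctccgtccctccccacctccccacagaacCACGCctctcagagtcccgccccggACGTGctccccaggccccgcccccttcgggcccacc
Pfkfb3, chr2:11553930-11554179, minus strand: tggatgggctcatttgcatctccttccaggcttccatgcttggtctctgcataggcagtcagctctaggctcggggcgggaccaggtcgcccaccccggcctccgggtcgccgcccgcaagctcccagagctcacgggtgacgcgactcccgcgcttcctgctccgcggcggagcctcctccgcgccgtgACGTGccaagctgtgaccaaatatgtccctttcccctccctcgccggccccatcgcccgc
P4ha2, chr11:54100674-54100923, plus strand: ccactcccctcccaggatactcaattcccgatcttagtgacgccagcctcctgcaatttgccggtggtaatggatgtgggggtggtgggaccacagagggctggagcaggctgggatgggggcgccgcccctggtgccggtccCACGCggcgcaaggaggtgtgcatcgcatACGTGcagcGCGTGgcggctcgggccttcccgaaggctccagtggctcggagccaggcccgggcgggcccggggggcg
Egln3, chr12:54203875-54204124, minus strand: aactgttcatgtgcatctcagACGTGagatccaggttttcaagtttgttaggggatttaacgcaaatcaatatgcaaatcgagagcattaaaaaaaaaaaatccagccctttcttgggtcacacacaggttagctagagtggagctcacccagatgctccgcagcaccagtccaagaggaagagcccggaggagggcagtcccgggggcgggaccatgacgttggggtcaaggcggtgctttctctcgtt
Slc16a3, chr11:120948817-120949066, plus strand: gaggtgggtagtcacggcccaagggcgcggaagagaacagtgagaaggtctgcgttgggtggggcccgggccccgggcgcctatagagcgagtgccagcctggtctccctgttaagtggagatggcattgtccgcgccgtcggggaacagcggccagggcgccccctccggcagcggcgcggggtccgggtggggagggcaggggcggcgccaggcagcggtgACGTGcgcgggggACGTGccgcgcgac
Slc16a3 carries ACGTG at 2 places in this window, and P4ha2 carries ACGTG at 1 place and GCGTG at 2. Entries matched 12 of the 17 called genes, not Kbtbd11, Slc2a3, Loxl2, Plekha2 or Gipr. Counting either strand, with overlapping matches allowed, ACGTG was found in 8 of the 12 windows (66.7%) and in 22.2% of the windows of 10114 tested genes. GCGTG was found in 5 of the 12 (41.7%) and in 46.9% of all. Either motif was found in 9 of the 12 (75.0%) and in 58.1% of all. The 5 windows shown all hold ACGTG. Those of Apln, Gys1 and Tpi1, not shown, held neither motif, and that of Pfkl held GCGTG alone. A match describes the letters in the window and not a bound site.

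Beyond the calls, the hypoxia and glycolysis list showed how widely the order extended. All 27 members were tested, 6 were called higher in Ofd1 CRISPR (Slc2a1, Slc2a3, Pfkl, Egln1, Egln3 and P4ha2) and 0 lower, against 0.133% of all genes. The median log2 difference over the list was 0.557, where that over all tested genes was -0.00555. Every Ofd1 library was above both Kif3a libraries in 22 of the 27 (81.5%), beside 12.4% of all genes. GFP was above both guides in 26. The list was written with earlier results of these data known, so its direction is no independent evidence. Its median was 0.388 without Kif3a replicate 1 and 0.641 without Kif3a replicate 2, the extremes over the alternatives tried.

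Several strong members of the list missed the threshold. Car9, carbonic anhydrase IX, a membrane enzyme widely used as a hypoxia marker, stood at 3.89, 5.18 and 10.03 CPM against 1.12 and 2.00 CPM, with GFP at 14.6 and 12.1 CPM. Its fold of 4.14 was among the largest, yet Ofd1 replicate 3 was far above the other Ofd1 libraries (adjusted p = 0.117). Vegfa, the endothelial growth factor, had 266, 303 and 383 CPM against 157 and 232 CPM, with GFP at 695 and 722 CPM (log2 0.70, adjusted p = 0.204). Bnip3, a mitophagy receptor, had 86.8, 89.0 and 134 CPM against 53.03 and 70.3 CPM, with replicate 3 again the highest of its group (adjusted p = 0.208). Ero1l, an oxidase of the endoplasmic reticulum, had 35.5, 44.7 and 44.9 CPM against 29.6 and 29.7 CPM and GFP at 91.5 and 86.6 CPM (adjusted p = 0.204). In all 4 the guides' libraries did not overlap. By contrast Bnip3l, close kin of Bnip3, was level between the guides at 195, 189 and 247 CPM and 214 and 202 CPM (log2 0.01, 95% interval -0.22 to 0.25), and Adm, adrenomedullin, overlapped at 20.5, 18.2 and 47.0 CPM and 13.6 and 23.5 CPM.

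Glycolysis was then followed step by step in a list of 27 tested enzymes and transporters compiled after the calls were seen. Again 6 were called, beside 0.133% of all genes, with a median of 0.36 in log2. Every Ofd1 library was above both Kif3a libraries in 19 (70.4%, beside 12.4% of all genes). The list was chosen with these values known, so its counts are a description. At the first step, hexokinase Hk2 had 218, 259 and 191 CPM against 131 and 160.3 CPM (log2 0.61, adjusted p = 0.127) and Hk1 had 86.9, 79.7 and 81.6 CPM against 63.8 and 62.2 CPM (0.39, 0.139). Neither passed, although their groups do not overlap. Among the phosphofructokinase subunits, Pfkl was called, while the muscle-type Pfkm had 166, 154 and 153 CPM against 148 and 139.6 CPM (log2 0.13, adjusted p = 0.748). The subunit Pfkp had few counts, at 2.71, 2.51 and 3.86 CPM against 0.775 and 1.35 CPM. Its log2 difference was larger, at 1.53, with groups apart but no call (adjusted p = 0.134). Of the bifunctional enzymes that set fructose 2,6-bisphosphate, Pfkfb3 was higher in Ofd1 CRISPR, Pfkfb4 was level (-0.01) and Pfkfb2 ran the other way at 52.2, 48.2 and 47.3 CPM against 66.7 and 58.1 CPM (log2 -0.35, adjusted p = 0.284). Pfkfb2 was the 1 member of the list whose Ofd1 libraries all lay below its Kif3a libraries.

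Other abundant enzymes of the pathway leaned the same way as the transporters with smaller differences. Gpi1, glucose-6-phosphate isomerase, stood at 617, 650.1 and 702 CPM against 461 and 517 CPM (log2 0.42, adjusted p = 0.139). Ldha, the lactate dehydrogenase subunit that favours lactate, stood at 1326, 1562 and 1744 CPM against 982 and 1305 CPM (0.43, 0.393). Pkm, pyruvate kinase, stood at 2060.2, 2332 and 2443 CPM against 1627 and 1928 CPM (0.35, 0.375). None of these passed, and counts of Pkm, Ldha, Gapdh, Pgk1 and Aldoa are uncertain, since near-identical pseudogenes can share their reads. Ldhb, which favours pyruvate, and Slc16a1, the broadly expressed monocarboxylate transporter, differed by 0.03 and 0.09 in log2 with overlapping libraries. Among the pyruvate dehydrogenase kinases, Pdk1 had 169.5, 178 and 218 CPM against 120.4 and 130.1 CPM, and Pdk2 was level at -0.02. Past pyruvate, edgeR and DESeq2 called 0 of 16 tested genes of the tricarboxylic acid cycle (median -0.012, 1 at an unadjusted p under 0.05) and 0 of 35 of the respiratory chain and ATP synthase (median -0.0461, 1). Both medians turned positive without Ofd1 replicate 1, to 0.0183 and 0.00463. The respiratory chain median was also positive without Kif3a replicate 2 (0.0287) and was -0.0984 without Kif3a replicate 1.

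**Figure D3:**
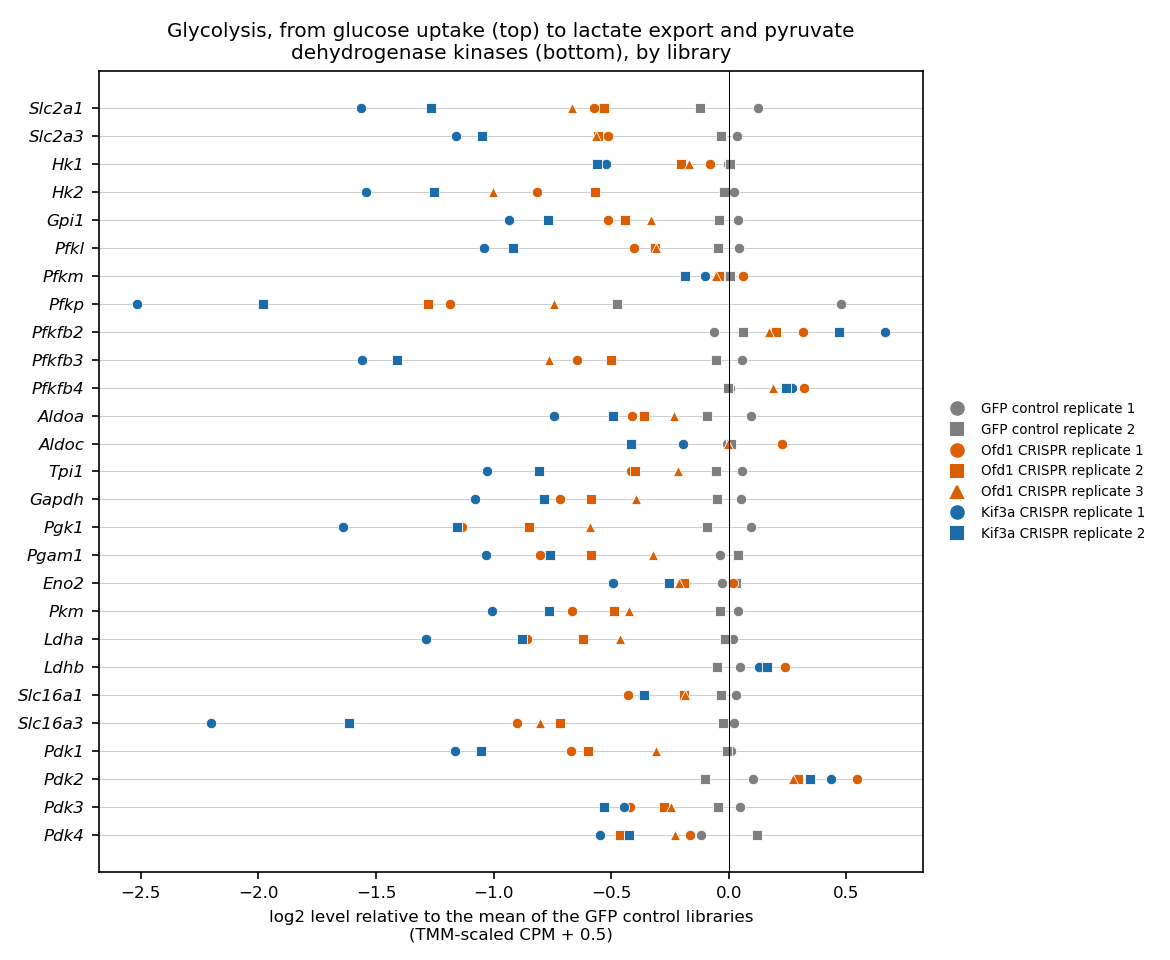
Glycolytic transporters and enzymes in pathway order from glucose uptake (top) to lactate export and the pyruvate dehydrogenase kinases (bottom), with each library's level as log2 of TMM-scaled CPM plus 0.5 relative to the GFP mean (horizontal axis); colours give the group and shapes the replicate. Blue Kif3a points lie left of orange Ofd1 points in 19 of the 27 genes, while Pfkfb2 shows the reverse order.

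Immediate early genes, which growth factors and calcium switch on within minutes, had the second highest median of the first 46 lists in the 5-library fit. Of 18 members 16 were tested and 0 were called in edgeR. At an unadjusted p under 0.05, 12 were higher in Ofd1 CRISPR, beside 4.27% of all genes. DESeq2 called 1, where it called 48 of 12339 genes in all. Leaving out Ofd1 replicate 1 gave 4 calls, beside 71 of all 12628 genes tested in that fit. Leaving out Ofd1 replicate 2 also gave 4, beside 24 of 12693. The median log2 difference was 0.537, and 11 members had every Ofd1 library above both Kif3a libraries (68.8% beside 12.4% of all genes). Nr4a1, a nuclear receptor induced by activity, stood at 22.0, 21.2 and 31.5 CPM against 13.4 and 15.2 CPM, with GFP at 106 and 94.1 CPM. The smallest adjusted p of the list was its 0.139. Fos, a subunit of the AP-1 factor, had 33.2, 9.24 and 21.3 CPM against 8.87 and 6.11 CPM and 20.7 and 13.3 CPM in the controls. Here Ofd1 replicates 1 and 3 were above both GFP libraries and replicate 2 was below both (log2 1.49, adjusted p = 0.273). Egr1 followed at 58.9, 26.8 and 49.2 CPM against 22.3 and 19.7 CPM (1.09, 0.167), with the same low replicate 2. Without Ofd1 replicate 1 the median of the list was 0.361.

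No Hedgehog target gene was called between the guides. Of 12 tested target genes 0 were called in edgeR and 0 in DESeq2, 1 reached an unadjusted p under 0.05 in each direction, and their median log2 difference was -0.00095. That median depended on single libraries: it was 0.195 without Ofd1 replicate 1 (8 of 12 positive), 0.201 without Kif3a replicate 2 (9 of 12) and -0.0762 without Kif3a replicate 1 (4 of 12). Gli1, the most direct readout of the pathway, had 167, 326 and 265 CPM in the Ofd1 libraries, 201 and 310.3 CPM in the Kif3a libraries and 428 and 476 CPM in the GFP libraries. All 5 CRISPR libraries were below both controls, and the guides overlapped fully (log2 -0.02, 95% interval -0.50 to 0.46, adjusted p = 0.993). Hhip, a Hedgehog-binding antagonist, read 27.5, 56.9 and 61.8 CPM and 42.7 and 56.1 CPM beside 125 and 145 CPM in GFP (-0.02, interval -0.56 to 0.51). Replicate 1 was the lowest Ofd1 library for both genes and the lower Kif3a library too. Ptch1 read 59.0, 85.1 and 86.9 CPM and 51.3 and 70.9 CPM (log2 0.33, interval -0.02 to 0.68, adjusted p = 0.683; 0.12 to 0.57 with 1 library left out), a gene the line carries in mutant form. The intervals still admit differences of up to about 0.5 in either direction for Gli1 and Hhip, so the test does not show that the guides act alike.

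Growth targets and pathway components gave narrower intervals. Mycn, a driver of progenitor proliferation, had 57.4, 48.7 and 52.2 CPM against 43.2 and 45.2 CPM, apart but not called (log2 0.25, adjusted p = 0.569). Ccnd1, cyclin D1, had 456, 592 and 596 CPM against 466 and 571 CPM (interval -0.19 to 0.34). Atoh1, the transcription factor of granule neuron progenitors, had 619.7, 517 and 496 CPM and 565 and 551 CPM with GFP at 365 and 388 CPM, so both guides were above the controls and overlapped each other. None of 22 tested pathway components was called by edgeR or DESeq2, and 0 reached an unadjusted p under 0.05. Smo differed by 0.01 (interval -0.16 to 0.19), Sufu, the inhibitor that holds GLI proteins back, by 0.09 (interval -0.10 to 0.28), and Gli2, the main activator, by 0.11 (interval -0.09 to 0.31).

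**Figure D4:**
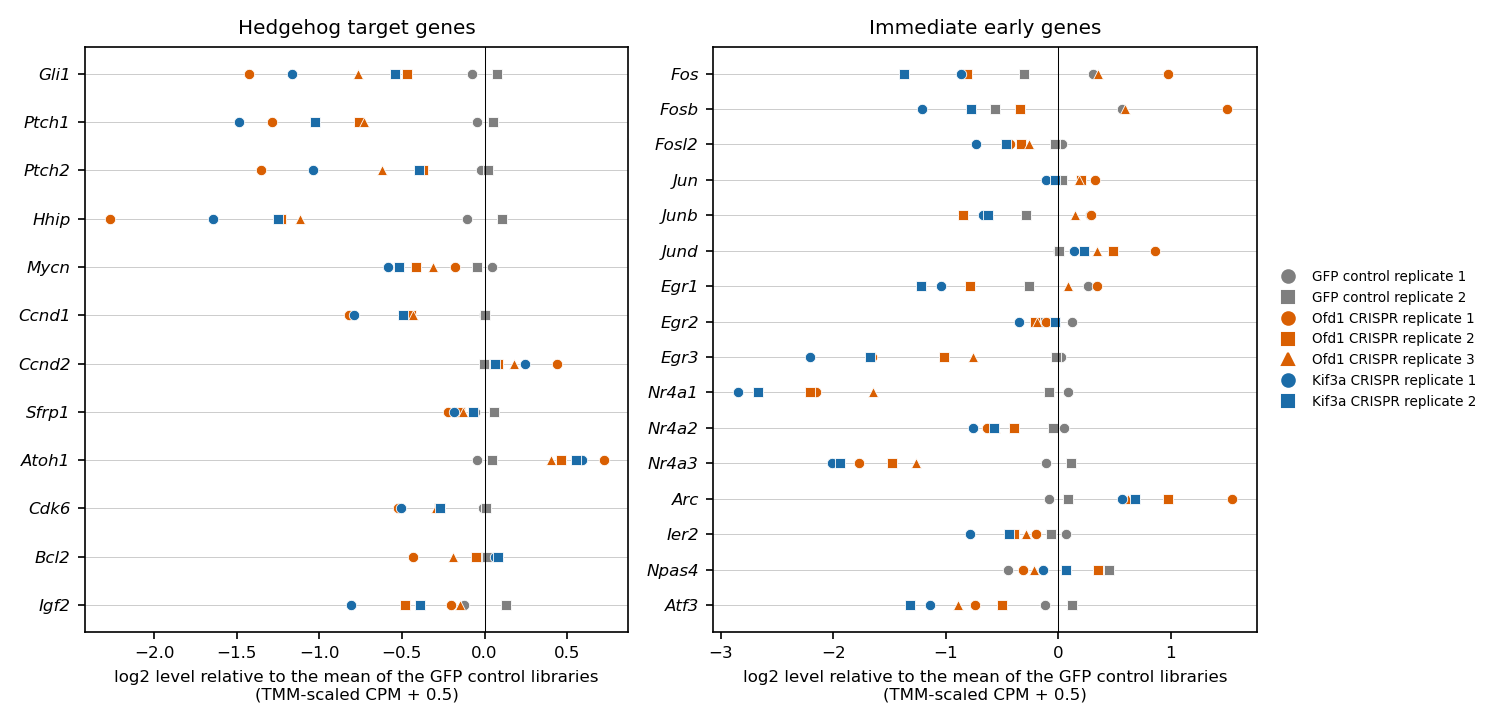
Hedgehog target genes (left) and immediate early genes (right) by library, as log2 of TMM-scaled CPM plus 0.5 relative to the GFP mean (horizontal axes); grey is GFP control, orange Ofd1 CRISPR, blue Kif3a CRISPR, and shapes give the replicate. Orange and blue points intermingle for Gli1, Hhip and Ccnd1, whereas blue points lie left of orange points for Fos, Fosb, Egr1, Egr3 and Nr4a1.

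Transcripts of the cilium itself, where the targets act, gave no call in edgeR. This covered intraflagellar transport B (17 tested, median 0.0169), intraflagellar transport A and dynein-2 (14, 0.029), the transition zone and ciliary membrane (19, 0.00947), the BBSome (12, 0.0218), distal centriole and appendages (18, 0.0285) and centriolar satellites (15, -0.0491). With 1 library left out at a time the medians of these 6 lists ran from -0.102 to 0.0899. At an unadjusted p under 0.05 the transition zone list held 2 and the BBSome list 1, all higher in Ofd1 CRISPR, beside 4.27% of all genes. The satellite list held 2, each lower, beside 3.26% of all genes, and 1 of them was Ofd1, which DESeq2 called. Among the other subunits of kinesin-2, Kif3b had 79.3, 68.4 and 69.1 CPM against 76.4 and 71.6 CPM (log2 -0.04, interval -0.24 to 0.16) and the adaptor Kifap3 105, 103 and 112 CPM against 118 and 102 CPM (-0.05, -0.23 to 0.14). The neuronal motor subunit Kif3c had 72.0, 68.9 and 64.1 CPM against 56.1 and 58.2 CPM, apart without a call (adjusted p = 0.474). Pcm1, the scaffold of the satellites in which OFD1 resides, overlapped at 202, 199 and 223 CPM and 246 and 207 CPM. Fopnl, a satellite protein that binds OFD1, was lower in every Ofd1 library at 73.7, 68.1 and 80.8 CPM against 85.9 and 83.6 CPM, without a call (adjusted p = 0.658).

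Of the first 46 gene lists 45 held no call in the 5-library edgeR fit, and 34 had a median within 0.1 of 0 there. After hypoxia and immediate early genes, the next medians among lists of 10 or more tested genes were interferon response (19 tested, 0.246), Wnt targets and inhibitors (12, 0.203) and the integrated stress response (27, 0.161). The last of these rested on single libraries, with a median of -0.00119 without Kif3a replicate 1 (12 of 27 positive) and 0.38 without Kif3a replicate 2. The interferon median ran from 0.221 to 0.374 and the Wnt median from 0.155 to 0.258 with 1 library left out. In the interferon list 7 members had every Ofd1 library above both Kif3a libraries (36.8%, beside 12.4% of all genes), with Rsad2 at 18.5, 19.9 and 24.3 CPM against 11.9 and 15.1 CPM and Oasl2 at 16.5, 16.9 and 21.5 CPM against 11.6 and 13.1 CPM (adjusted p = 0.208 and 0.256). The integrated stress response, which ATF4 drives when amino acids run short, mostly overlapped: Asns, asparagine synthetase, read 106, 182 and 192 CPM and 119 and 162 CPM beside 432 and 472 CPM in GFP, and 4 of the 27 (14.8%) were apart, near that 12.4% share. Cebpb and Stc2 were among the 4, at 12.7, 11.7 and 13.2 CPM against 6.37 and 9.03 CPM and 5.17, 5.96 and 5.40 CPM against 2.28 and 3.62 CPM (adjusted p = 0.196 and 0.237). Cell division lists had medians of 0.036 for G1/S and replication (27 tested, -0.0275 to 0.11 with 1 library left out) and 0.0636 for G2/M and mitosis (23, 0.0395 to 0.147). Axon guidance had a median of -0.102 over 25 genes, which shrank to -0.0372 without Ofd1 replicate 3 and -0.0377 without Kif3a replicate 1. In 5 of its genes (20.0%, beside 10.6% of all genes) every Ofd1 library was below both Kif3a libraries.

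**Figure D5:**
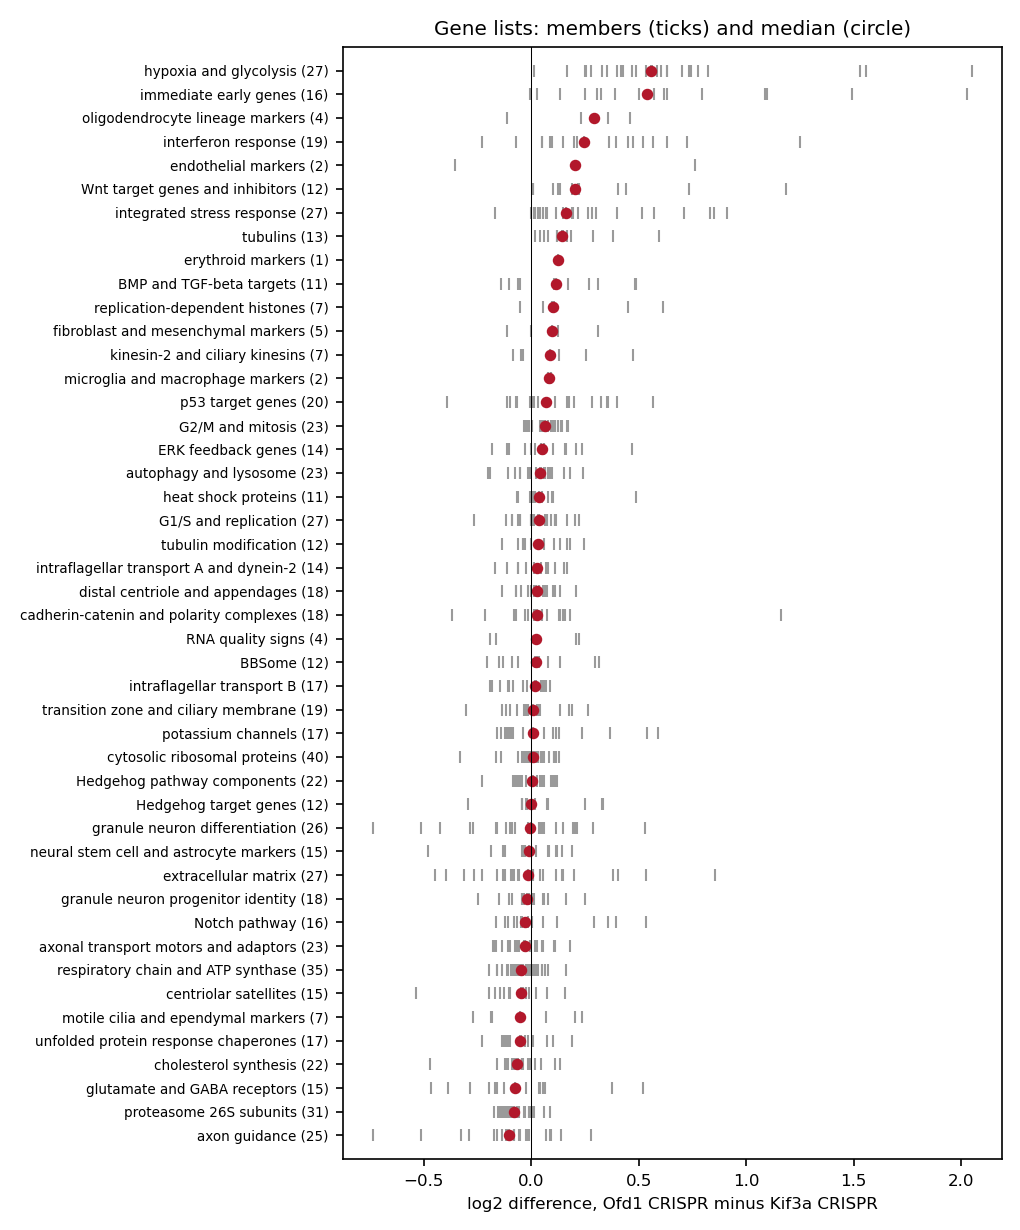
Median log2 difference, Ofd1 CRISPR minus Kif3a CRISPR, for each of the first 46 gene lists (vertical axis, with the number of tested members) as a red circle, with its single members as grey ticks (horizontal axis). Hypoxia and glycolysis (0.557) and immediate early genes (0.537) stand to the right, and 34 of the medians lie within 0.1 of 0.

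No gene was called higher in Kif3a CRISPR in the edgeR test of the 5 libraries without a replicate term, although 11 were when Ofd1 replicate 1 was left out. The genes that came nearest are given as values, chosen after they were seen. Besides Ofd1 they were led by Rbm3, a cold-inducible RNA-binding protein, at 85.5, 105 and 96.1 CPM in the Ofd1 libraries against 119.8 and 142 CPM in the Kif3a libraries (log2 -0.46, adjusted p = 0.161). Fat4, an atypical cadherin of planar polarity, had 15.3, 15.5 and 14.0 CPM against 21.3 and 20.8 CPM and GFP at 11.3 and 12.3 CPM (-0.50, 0.167). Pcdh15, a protocadherin of hair-cell links, had 20.9, 19.4 and 19.5 CPM against 29.2 and 24.6 CPM and GFP at 15.2 and 15.1 CPM (-0.44, 0.256). In Fat4 and Pcdh15 the Ofd1 libraries lay between a lower GFP and a higher Kif3a level, the mirror image of the called genes. The calcium channel subunit Cacna2d1 differed in that respect: its Kif3a libraries, at 84.1 and 79.5 CPM, overlapped GFP at 77.2 and 82.9 CPM, and its Ofd1 libraries were lower at 57.8, 63.1 and 67.9 CPM (-0.38, 0.204). Ofd1 is the 1 gene lower in Ofd1 CRISPR that passed when the GFP libraries joined the fit.

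Genes beside the targets were looked at because a cut can disturb neighbours. Of the 5 tested genes on either side of Ofd1 the smallest adjusted p was 0.47, that of Trappc2. Trappc2 had 4.24, 3.79 and 4.17 CPM against 5.38 and 6.43 CPM (log2 -0.54), with GFP at 4.33 and 4.85 CPM. Trappc2 and the next gene, Rab9 (log2 -0.22, adjusted p = 0.662), were lower in every Ofd1 library than in both Kif3a libraries, as in 10.6% of all genes. Rab9 had 30.8, 33.3 and 38.1 CPM against 40.7 and 38.5 CPM, with GFP at 34.5 and 34.4 CPM. In both genes the Kif3a libraries were above both GFP libraries. The Ofd1 libraries were all below GFP for Trappc2 and spanned GFP for Rab9. Piga and Gemin8, on the other side, were higher in every Ofd1 library (0.21 and 0.05), as in 12.4%. Beside Kif3a the smallest adjusted p was 0.618, that of Slc22a4 (log2 0.60), also higher in every Ofd1 library. Median log2 differences by chromosome ran from -0.0461 on X to 0.0206 on 7.

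Other cell types were checked with marker lists, since in bulk RNA fewer cells of a type and less RNA per cell cannot be told apart. Microglia and macrophage markers summed to 3.55 to 4.98 CPM in the Ofd1 libraries, 3.36 to 3.68 CPM in the Kif3a libraries and 2.95 to 34.1 CPM in the GFP libraries, with 2 of 18 tested and 5 at 0 in all 5 libraries. Chemokine and antigen presentation genes of myeloid cells gave the largest log2 differences of the whole comparison without a call. Ccl22 had 8.82, 0.0557 and 0.668 CPM against 0 in both Kif3a libraries, and 57.9 and 0.150 CPM in GFP, so replicate 1 of GFP and of Ofd1 hold nearly all of it (adjusted p = 0.434). Endothelial markers summed to 1.85 to 2.45 CPM in Ofd1 CRISPR and 1.51 to 1.57 CPM in Kif3a CRISPR, and Cldn5 had no count. Oligodendrocyte lineage markers summed to 127 to 210.2 and 126 to 166 CPM, nearly all from Pdgfra, with Sox10 and Mog at 0. Whether any of these bears on the 17 calls was not tested.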

How the data were processed

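RNA of SMB21 cells was sequenced from stranded poly-A libraries as single-end reads of 75 bases, per the labels' protocols. The deposited table holds raw counts, whole reads per gene symbol and library. The build mm9 and the tools STAR and DESeq2 appear, without version or role, per the submitters' processing notes. For the read counter, annotation and strand setting nothing is given in the sources used here, and reads of overlapping or duplicated genes may be split or lost. The series text counts 3 GFP replicates, and 2 were analysed here. Library totals ran from 17961767 to 23022701 counts, and without molecular identifiers counting limits cover counting error only.

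Genes passing filterByExpr on the guide groups were tested with edgeR 4.0.16 in R 4.3.3 on the 3 Ofd1 and 2 Kif3a libraries: TMM factors, a mean per guide, 3 residual degrees of freedom, the quasi-likelihood F test and Benjamini-Hochberg adjustment over all tested genes, with calls at an adjusted p under 0.05. Every adjusted p is from this fit unless DESeq2 or GFP is named. Contrasts against GFP came from a fit of all 7 libraries. The SE of a log2 difference was derived from the F statistic. Levels are TMM-scaled CPM, and log2 levels in plots used CPM plus 0.5. The calculation was tested on simulated data. Alternatives were RLE factors, library totals, DESeq2 1.42.0, other filters, a relaxed threshold, a replicate term and each library left out.

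Named genes were the targets, 9 Hedgehog genes, up to 12 called genes of largest difference and 6 of smallest adjusted p in each direction at a mean of at least 2 CPM, and up to 3 called members of each list. The comparison, the 46 first lists and the tests were chosen with earlier results of these data known. A further 6 lists, and all other genes given with values, were chosen after their values were seen. Gene names were matched to RefSeq promoters by symbol.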

Additional observations from a re-analysis of the deposited data

How the results depend on the processing

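The count of 17 genes, all higher in Ofd1 CRISPR, stayed within 1.5 times with RLE factors (17), library totals (17), a minimum mean of 2 CPM (14), an adjusted p under 0.10 (21, 1 of them higher in Kif3a CRISPR) and all 7 libraries in the fit (23, 1 of them higher in Kif3a CRISPR). DESeq2 gave 48 (46 higher in Ofd1 CRISPR, 2 in Kif3a CRISPR), and no filter on low counts gave 181 (157 and 24). Leaving out 1 library at a time gave 0 to 71 calls, 0 to 60 of them higher in Ofd1 CRISPR and 0 to 11 higher in Kif3a CRISPR. The lowest was without Kif3a replicate 1, where 1 Kif3a library is left and assumed to vary like the Ofd1 libraries. Calls in the hypoxia and glycolysis list were 6 in the main fit, beside 17 of all 12752 genes. They reached 21 with no filter, beside 181 of all 16793 genes. Without Kif3a replicate 1 the list's median log2 difference was 0.388.

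A replicate block gave 552 calls with 5 libraries (256 higher in Ofd1 CRISPR, 296 in Kif3a CRISPR) and 191 with 7 (124 and 67), and all 17 genes were called in both. Deviations of same-numbered libraries correlated at 0.282 and 0.212 between the guides, at 0.127 and 0.157 between GFP and Ofd1 CRISPR and at 0.0144 between GFP and Kif3a CRISPR. Deviations were taken from the group mean, so those of the 2 Kif3a libraries, or of the 2 GFP libraries, differ in sign alone. The values of a pair of groups are therefore not separate agreements. Ofd1 replicate 3 gave -0.108 with Kif3a replicate 1 and 0.108 with Kif3a replicate 2. Only 2 numbers are shared by the guides and the labels do not say what a number marks, so the numbers were not taken to pair the libraries.

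The 17 called genes kept their sign in every alternative. Signs that turned belong to uncalled genes near 0. With 1 library left out at a time, log2 differences ran from -0.30 to 0.32 for Gli1, -0.23 to 0.27 for Hhip, -0.059 to 0.22 for Ccnd1, -0.024 to 0.063 for Smo and -0.14 to 0.028 for Atoh1. Atoh1 also turned with the replicate block, to 0.016 with 5 libraries and 0.024 with 7. The cause of these shifts was not tested. With 2 Kif3a libraries, low-count genes such as Gipr are measured least precisely.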

Other observations

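Some further gene groups leaned one way without a call in the edgeR test. All 13 tested tubulins had positive log2 differences, Ofd1 CRISPR minus Kif3a CRISPR, with a median of 0.141. Of all 12752 tested genes 6145 were positive. In 3 tubulins (23.1%, beside 12.4% of all genes) every Ofd1 library was above both Kif3a libraries. Without Kif3a replicate 1, 10 of the 13 were positive and the median was 0.0788. Among 20 p53 target genes 7 were apart in that direction and 2 in the other, beside 12.4% and 10.6% of all tested genes. Cdkn1a, the cell cycle inhibitor p21, stood at 2.51, 3.84 and 3.55 CPM in the Ofd1 libraries and 2.11 and 2.32 CPM in the Kif3a libraries, with GFP at 11.1 and 6.91 CPM (adjusted p = 0.642). Both guides were below the controls. Bbc3, the pro-apoptotic gene PUMA, stood at 15.3, 12.7 and 13.1 CPM against 10.8 and 10.5 CPM (adjusted p = 0.578). Of 31 subunits of the 26S proteasome 7 were lower in every Ofd1 library than in both Kif3a libraries (22.6%, beside 10.6% of all genes) and 1 was higher, with a median of -0.0804. That median was -0.124 without Kif3a replicate 1 and -0.0411 without Kif3a replicate 2.

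Carbonic anhydrases, a list compiled after the calls were seen, held Car14 beside Car9. Car14, a membrane-bound enzyme, had 214, 204 and 245 CPM against 144 and 167 CPM and GFP at 294 and 280.2 CPM (log2 0.51, adjusted p = 0.104). Its order of groups was that of the called genes, while Car2, a cytosolic enzyme, overlapped at 2.61, 2.95 and 4.32 CPM and 3.27 and 3.41 CPM. Lox, a lysyl oxidase related to Loxl2, was near the limit of detection at 1.13, 0.724 and 0.874 CPM against 0.344 and 0.216 CPM (adjusted p = 0.342).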
